A study of Mus musculus with 5 samples.

Results

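The 6 genes described here belong to the stress axis and were followed across the nuclei of the mouse paraventricular hypothalamic nucleus (PVH): corticotropin-releasing hormone (Crh), its receptors Crhr1 and Crhr2, the corticosteroid receptors Nr3c1 and Nr3c2, and the co-chaperone Fkbp5. They were chosen by symbol, each matched 1 row, and they are 6 of the 31054 features counted. In the nuclei used they gave 414 UMIs (unique molecular identifiers, each standing for 1 captured RNA) for Crh, 2240 for Crhr1, 797 for Crhr2, 36146 for Nr3c1, 79405 for Nr3c2 and 18155 for Fkbp5. The first 3 genes are therefore described from sparse counts and the last 3 from dense ones.

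The study profiled single nuclei of male mice on a C57BL6 background in 5 libraries, each pooled from 2 to 4 animals. Dams received either valproate (VPA, 500 mg/kg) or saline (10 mL/kg) on gestation day 12.5, and their OT-Cre; Rosa26tm9(CAG-tdTomato)Hze (Ai9) sons were taken at 5 weeks, giving 1 library named saline here and 1 named VPA. The other 3 libraries came from OT-Cre; Rosa26dreaddm3 (stop-hM3) sons taken at 5 to 7 weeks, all of them exposed to VPA before birth and injected with AAV in the PVH and supraoptic regions. They had received CNO, the ligand of the hM3 receptor, or saline on postnatal day 2, giving CNO replicates 1 and 2 and 1 library named the hM3 control, in which VPA exposure is shared with the CNO libraries. OT-Cre directs the transgenes to oxytocin neurons, and the sort of DAPI-stained nuclei favoured large ones, so shares of cell types follow the gate as well as the tissue. A genotype, an age range and an injection separate the first 2 libraries from the other 3, and the age and injection cannot be told apart from the genotype.

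CRH released by PVH neurons drives corticotropin release from the pituitary and so the secretion of glucocorticoids from the adrenal. Glucocorticoids act back on the brain through the glucocorticoid receptor (Nr3c1) and, at lower hormone levels, the mineralocorticoid receptor (Nr3c2), both of which are ligand-dependent transcription factors held by chaperones until hormone binds. Fkbp5 is a co-chaperone that lowers the affinity of the glucocorticoid receptor for hormone and is itself induced by that receptor, which makes its RNA a common readout of glucocorticoid action. Crhr1 is the receptor with high affinity for CRH, and Crhr2 also binds the urocortins.

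In mm10 (GRCm38) with GENCODE vM21, Crh lies at chr3:19693401-19695396 on the minus strand, Crhr1 at chr11:104132855-104175523 on the plus strand, Crhr2 at chr6:55090049-55133016 on the minus strand, Nr3c2 at chr8:76899442-77245012 on the plus strand and Fkbp5 at chr17:28399094-28517527 on the minus strand. Fkbp5 overlaps the antisense gene AC154912.1 and Nr3c2 overlaps the long noncoding gene Gm10649 at its start. Whether counting used strand or introns is not given in the sources used here, so reads of overlapping genes cannot be told apart. The bases before a RefSeq start are shown for Nr3c2 and Fkbp5, which are highest in the same neuron sub-clusters, and for Crhr2, which is highest in another. The Nr3c2 and Fkbp5 windows lie inside the gene spans given above, so the outermost starts of these genes were not searched. The 250 bases are given 5′ to 3′ on the gene's strand with matches to the searched motifs in capitals.
Nr3c2, chr8:76902080-76902329, plus strand, GRCm38.p6: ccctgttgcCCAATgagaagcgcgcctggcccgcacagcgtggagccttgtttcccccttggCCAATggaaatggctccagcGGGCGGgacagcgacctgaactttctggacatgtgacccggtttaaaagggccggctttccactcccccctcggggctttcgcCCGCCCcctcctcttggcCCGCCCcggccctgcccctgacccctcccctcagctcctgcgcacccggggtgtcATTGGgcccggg
Fkbp5, chr17:28486150-28486399, minus strand, GRCm38.p6: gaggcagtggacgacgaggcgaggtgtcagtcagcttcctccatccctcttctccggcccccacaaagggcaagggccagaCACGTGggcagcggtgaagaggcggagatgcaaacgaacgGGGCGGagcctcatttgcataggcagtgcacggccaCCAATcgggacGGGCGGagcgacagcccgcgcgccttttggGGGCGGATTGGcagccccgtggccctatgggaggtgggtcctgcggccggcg
Crhr2, chr6:55133017-55133266, minus strand, GRCm38.p6: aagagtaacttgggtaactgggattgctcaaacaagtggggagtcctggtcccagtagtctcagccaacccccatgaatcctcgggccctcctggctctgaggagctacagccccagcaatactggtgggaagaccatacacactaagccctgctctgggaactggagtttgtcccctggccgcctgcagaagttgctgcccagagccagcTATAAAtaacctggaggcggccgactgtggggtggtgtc
The motifs searched on both strands were the TATA-box letters TATAAA, the motif known for its letters as CCAAT, the GC box with the letters GGGCGG, an E-box with the letters CACGTG, the cAMP response element TGACGTCA, a steroid receptor site with the letters AGAACA and the palindrome of that site with a spacer of 3 bases, every match of which also holds AGAACA. Nr3c2 held 3 CCAAT and 3 GC-box matches in 68.4% GC, and Fkbp5 held 2 CCAAT, 3 GC-box and 1 E-box match in 68% GC, against a median GC of 52.4% over all 32851 RefSeq promoters of this length. Crhr2 held TATAAA 39 bases before its start. TATAAA occurred in 12.4% of all promoters, CCAAT in 33.8%, GGGCGG in 32.7%, CACGTG in 6.02%, TGACGTCA in 1.55%, AGAACA in 16.1% and the palindrome in 0.00913%. Neither of the steroid receptor motifs nor the cAMP element was found in these windows or in that of Crhr1, the fourth of 4 matched members. The RefSeq table held no entry matched here for Crh, and the promoter of Nr3c1 was left out of the search.

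After filtering, 29467 nuclei were used, between 4137 and 9761 per library, with 48726159 to 70174279 UMIs per library. The median depth of the deposited nuclei was 11068 UMIs in saline, 5451 in VPA, 11119 in the hM3 control and 11913 and 3722.5 in CNO replicates 1 and 2, so the last library stands apart in depth, as does VPA. Pairs of libraries shared 4 to 23 cell barcodes. Clustering, done without the 6 members, gave 18929 neuron-like nuclei, 4788 astrocyte-like, 2598 oligodendrocyte-like, 664 oligodendrocyte progenitor-like and 372 microglia-like nuclei, and the neuron-like nuclei formed 51 sub-clusters named by their leading genes. Their families were GABAergic-like (9114 nuclei), Sim1-rich (4359, the lineage of the PVH), thalamus-type-like (2822), other Slc17a6-rich (1284) and other neurons (1350). Levels are given on the usual CPM scale, which divides the UMIs of a gene by all UMIs of the same class and library, and intervals are exact at 95% and cover counting error only. PCR duplicates are collapsed by UMI, but pooled animals and handling are outside these intervals. CPM values here are not scaled for gene length and are compared for the same gene between classes or libraries, not between genes.

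Crh RNA was scarce in every library. In neuron-like nuclei it stood at 1.61 CPM in saline, 1.58 in VPA, 1.23 in the hM3 control and 1.22 and 1.80 in CNO replicates 1 and 2, from 52 to 91 UMIs per library. These values overlap between the groups. A UMI of Crh was present in 278 of 18929 neuron-like nuclei (1.47%, interval 1.30% to 1.65%), against 0.313% of astrocyte-like and 0.192% of oligodendrocyte-like nuclei, types not known to make the hormone. The median depths were 10007 UMIs in neuron-like nuclei but 2660 and 2785.5 in those glia. Pooled over libraries the levels were 1.45 CPM (1.31 to 1.61) in neuron-like and 1.07 CPM (0.611 to 1.74) in astrocyte-like nuclei, but the libraries differed. Astrocyte-like Crh was 2.67 CPM in VPA (6 UMIs) and 2.46 in CNO replicate 2 (9 UMIs), above the neuron-like level of the same library, and 0.211 in the hM3 control (1 UMI), below it. Saline and CNO replicate 1 had no astrocyte-like UMI, which allows up to 1.45 and 2.09 CPM.

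Crh was concentrated in a few neuron sub-clusters, though it led none of the 51. The highest level was 11.3 CPM (8.61 to 14.6, 59 UMIs) in the sub-cluster led by Agtr1a, Tns1 and Fam159a, followed by 9.26 CPM (22 UMIs) in the one led by Aox3, Ebf3 and Reln and 6.77 CPM (24 UMIs) in the one led by Pde3a and Calcr. All 3 are Sim1-rich. The highest GABAergic-like sub-cluster, led by Moxd1, Greb1 and Lhx6, had 3.95 CPM (40 UMIs), while the median over sub-clusters was 0.632 CPM and 9 had no Crh UMI at all. Nuclei with at least 3 Crh UMIs, a level set for calling a nucleus rich in Crh, numbered 17, or 0.0898% of neuron-like nuclei (0.0523% to 0.144%), with 6 in saline, 2 in VPA, 3 in the hM3 control and 4 and 2 in CNO replicates 1 and 2. Of these, 10 were GABAergic-like, 6 Sim1-rich and 1 thalamus-type-like.

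The 50 neuron-like nuclei with at least 2 Crh UMIs carried the corticosteroid receptors often. Nr3c1 was present in 36 of them, Nr3c2 in 44 and Fkbp5 in 23. In the 18879 other neuron-like nuclei the shares were 51.6% for Nr3c1, 70.7% for Nr3c2 and 36.5% for Fkbp5. Their median depth was 19000.5 UMIs against 9988, and per UMI the levels were nearer, at 139 against 109 CPM for Nr3c1, 291 against 248 for Nr3c2 and 61.8 against 54.6 for Fkbp5. Agtr1a, an angiotensin receptor gene, stood at 45.1 CPM in them against 14.4, Sim1 at 163 against 96.4 CPM, Gad2, which makes GABA, at 227 against 158 CPM, and oxytocin (Oxt) at 5.88 against 36.7 CPM.

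Crhr1 RNA was mostly neuronal. Its neuron-like levels were 6.83 CPM in saline, 5.85 in VPA, 7.56 in the hM3 control and 12.3 and 8.33 in CNO replicates 1 and 2. CNO replicate 1 was the highest library and the other 4 lay close together. Astrocyte-like nuclei held 6 Crhr1 UMIs (0.401 CPM), oligodendrocyte-like nuclei 5 (0.608 CPM) and microglia-like nuclei none in 372 nuclei, which allows up to 0.987% of nuclei with a Crhr1 UMI by the exact interval. At their median depth of 1727 UMIs this does not limit the share of nuclei that express the gene. Among neuron families, GABAergic-like nuclei had 10.8 CPM (7.77 to 16.2 over the libraries), other neurons 10.51 CPM (6.38 to 19.7), thalamus-type-like 6.15 CPM, Sim1-rich 5.04 CPM (3.30 to 9.28) and other Slc17a6-rich 3.99 CPM (1.85 to 4.88). The GABAergic-like range lies above that of the other Slc17a6-rich nuclei, and it overlaps those of the remaining 3 families. Within libraries, though, the GABAergic-like level was 1.73 to 2.36 times the Sim1-rich level (median 1.75), higher in 5 of 5.

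Among sub-clusters, Crhr1 was highest at 82.7 CPM (57.9 to 114, 36 UMIs) in 37 nuclei led by the dopamine transporter gene Slc6a3, Ntn1 and Bnc2. All 37 came from CNO replicate 2, so that level has no second library. The next were GABAergic-like: 35.1 CPM (17 UMIs) in the Prdm16- and Ano1-led sub-cluster, 27.9 CPM in that led by Ntng2 and Syt2 (34 UMIs) and 27.9 CPM in that led by Eepd1, Pvalb and Kcnmb2 (53 UMIs). Of the 202 Ntng2-led nuclei 162 came from CNO replicate 2 (median 3198 UMIs), and of the 125 Eepd1-led nuclei 72 and 31 came from CNO replicates 1 and 2. The median sub-cluster had 6.86 CPM. The genes whose levels over the 51 sub-clusters were most like those of Crhr1 were Pacsin1 (Pearson r = 0.71), Fbxo18 (0.69), Cplx1 (0.69), Gm2164 (0.68) and Miga2 (0.66). These correlations on log2(CPM + 5), like all those given here, are descriptions over sub-clusters that share libraries and differ in depth.

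Crhr2 RNA was concentrated in a Sim1-rich sub-cluster led by Sim2, Col6a5 and Ebf1 (556 nuclei). Its level there was 24.6 CPM in saline, 34.5 in VPA, 29.6 in the hM3 control and 34.0 and 53.4 in CNO replicates 1 and 2. In the Sim1-rich neurons outside the Agtr1a-related sub-clusters, a set that includes these nuclei, it was 2.91, 7.02, 5.90, 6.97 and 6.48 CPM in the same order. The 2 ranges do not overlap, and within libraries the Sim2-led level was 4.87 to 8.45 times higher (median 5.01), in 5 of 5 libraries. The Sim2-led nuclei gave 207 of the 233 Crhr2 UMIs of the larger set, so these ratios understate the difference from its other nuclei. The sub-cluster held 30.4% of the Crhr2 UMIs of neuron-like nuclei but 2.64% of all their UMIs. The next levels were 11.0 CPM (52 UMIs) in the Megf11- and Nr5a1-led sub-cluster, 7.91 CPM (80 UMIs) in the Moxd1-led sub-cluster and 6.42 CPM (35 UMIs) in that led by Cdh23 and Meis2, against a median of 0.789 CPM. The genes most like Crhr2 over sub-clusters were Col6a5 (r = 0.62), Clca3a2 (0.62), 6030407O03Rik (0.59), Ngb (0.55) and Clca3a1 (0.54), and Col6a5 is itself a leading gene of the Sim2-led nuclei.

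**Figure D1:**
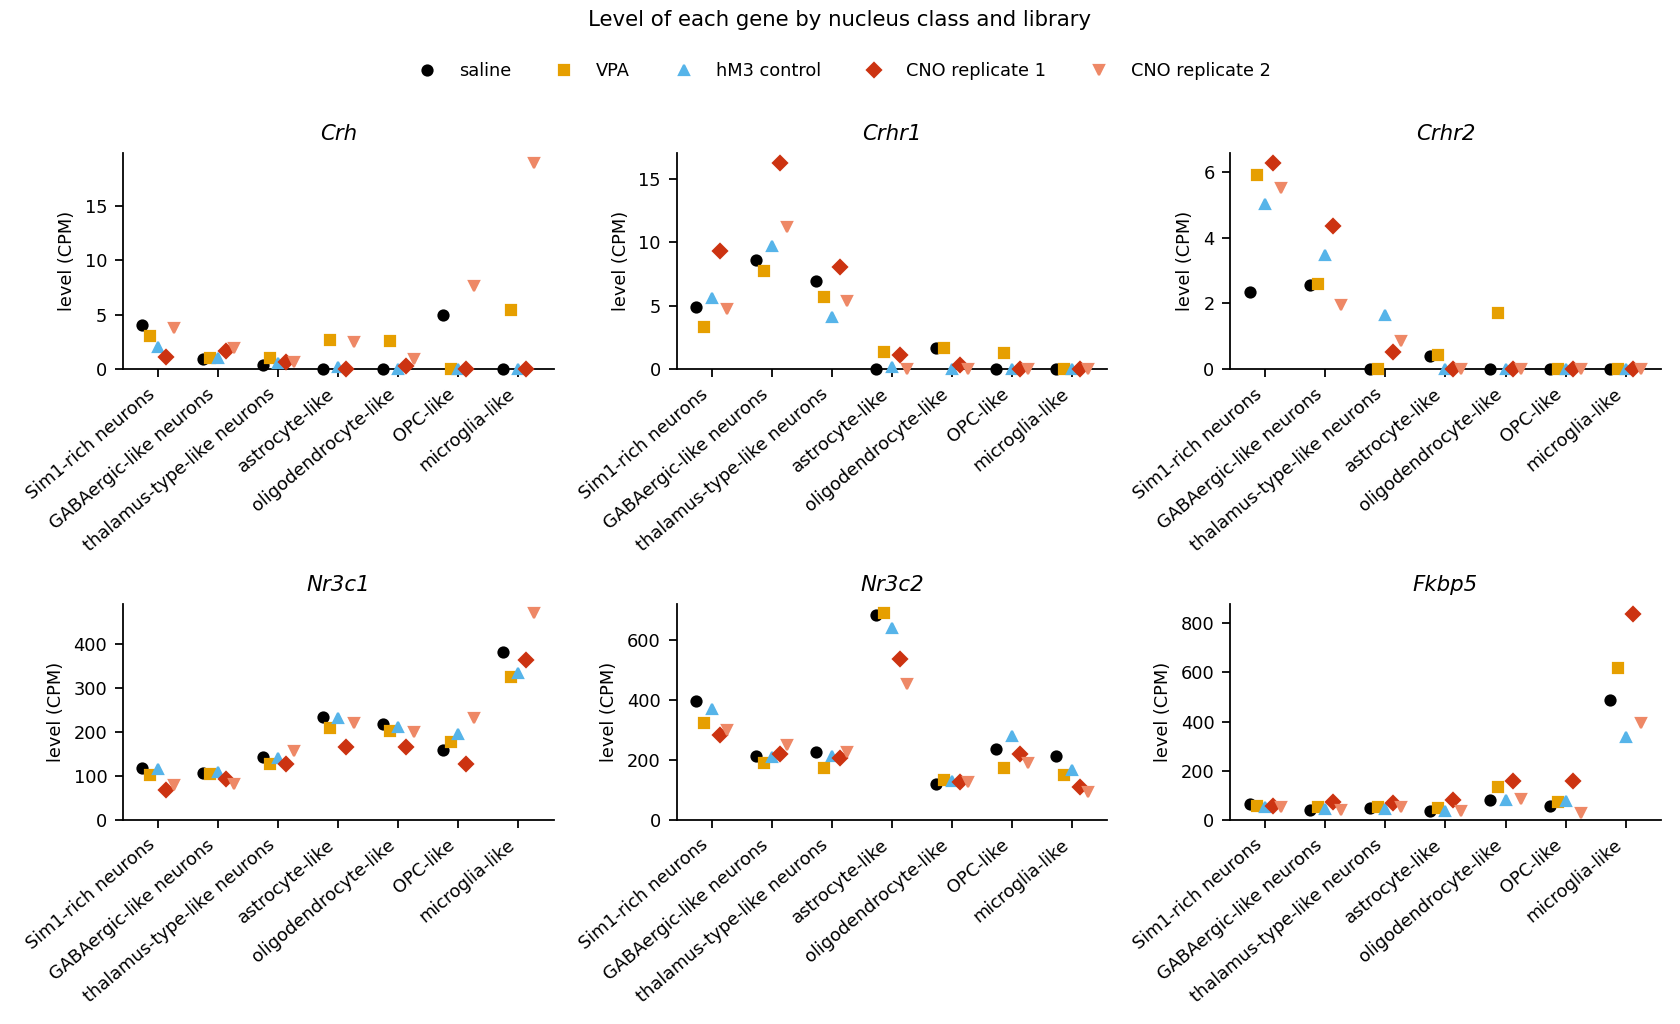
Level of each of the 6 genes in 7 classes of nuclei, in CPM on a linear axis that starts at 0 and is scaled for each gene, with 1 symbol per library and OPC standing for oligodendrocyte progenitor. Fkbp5 is highest in microglia-like nuclei and Nr3c2 in astrocyte-like nuclei in all 5 libraries, while the high Crh symbols in microglia-like and OPC-like nuclei rest on few UMIs (2 and 5 over the 5 libraries).

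RNA of the corticosteroid receptors was detected in all 51 neuron sub-clusters but at very different levels between types. Nr3c1 stood at 114 CPM in saline, 105 in VPA, 114 in the hM3 control and 98.7 and 111 in CNO replicates 1 and 2 over all neuron-like nuclei. Over the 51 sub-clusters it ran from 13.8 CPM (6 UMIs, the Slc6a3-led nuclei) to 370 CPM, with a median of 86.3 CPM. Nr3c2 was 281 CPM in saline, 231 in VPA, 248 in the hM3 control and 229 and 246 in CNO replicates 1 and 2, and ran from 105 to 1083 CPM over sub-clusters with a median of 228 CPM. Fkbp5 was 49.1 CPM in saline, 53.8 in VPA, 47.8 in the hM3 control and 73.5 and 47.2 in CNO replicates 1 and 2, and ran from 24.4 to 210 CPM with a median of 43.7 CPM. The spread between sub-clusters was thus wider than that between libraries for each of these genes.

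The same pair of Sim1-rich sub-clusters had the highest levels of all 3 genes. One was led by Agtr1a, Tns1 and Fam159a and the other by Ppp1r17, Egfr and Agtr1a, and they are called the Agtr1a-led neurons here (707 nuclei: 205 in saline, 323 in VPA, 103 in the hM3 control and 20 and 56 in CNO replicates 1 and 2). Nr3c1 was 370 CPM in the first and 290 CPM in the second, Nr3c2 was 1061 and 1083 CPM, and Fkbp5 was 210 and 185 CPM. They are compared with the 3427 Sim1-rich nuclei outside them and outside a related sub-cluster led by Rxfp2, Hhip and Sst. Since clustering set the groups, these contrasts are described without a test, and 5 libraries could not reach 0.05 in a two-sided exact sign-flip test.

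In the Agtr1a-led neurons Nr3c1 was 411 CPM in saline, 338 in VPA, 345 in the hM3 control and 202 and 279 in CNO replicates 1 and 2. The other Sim1-rich neurons had 59.2, 61.7, 66.0, 55.8 and 50.4 CPM in the same order. No library of either set overlapped the other, and the level was higher in 5 of 5 libraries, by 3.63 to 6.94 times (median 5.48). Nr3c2 was 1282, 1087, 957, 550 and 872 CPM in the Agtr1a-led neurons and 236, 214, 249, 258 and 214 CPM in the others. This was higher in 5 of 5 libraries, by 2.13 to 5.43 times (median 4.09), with the smallest ratio in CNO replicate 1, whose 20 nuclei make it the thinnest set. Fkbp5 was 251, 203, 157, 200 and 174 CPM against 33.3, 35.5, 33.0, 45.0 and 34.2 CPM, again higher in 5 of 5 libraries, by 4.44 to 7.53 times (median 5.08).

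Crh did not follow the receptors through the pair. It was 11.3 CPM (59 UMIs) in the sub-cluster led by Agtr1a, Tns1 and Fam159a but 0.632 CPM (1 UMI) in that led by Ppp1r17 and Egfr, below the 2.17 CPM of the other Sim1-rich neurons. Over the pair it was 9.20 CPM in saline, 11.2 in VPA, 5.35 in the hM3 control and 2.25 and 18.2 in CNO replicates 1 and 2, against 3.38, 1.98, 1.47, 1.06 and 1.77 CPM in the other Sim1-rich neurons. It was higher in 5 of 5 libraries by a median of 3.63 times, with 1 UMI in CNO replicate 1. Crhr1 was near 5.00 CPM in both sets (5.16 CPM in the others), and Crhr2 had 3 UMIs (0.442 CPM) in the Agtr1a-led neurons against 233 (5.49 CPM). Of those 233 UMIs, 207 lay in the Sim2-led sub-cluster. The pair was singled out for its receptor and Fkbp5 levels, so these ratios describe the choice. Choosing Sim1-rich nuclei by at least 2 Agtr1a UMIs instead of by sub-cluster, a split added after the data were seen, gave median ratios over nuclei with none of 4.18 for Nr3c1, 3.25 for Nr3c2, 4.27 for Fkbp5 and 5.19 for Crh, each higher in 5 of 5 libraries. For Crh the ratio ran from 1.71 to 7.88, with 3 UMIs in the chosen nuclei of each CNO library and 6 in those of the hM3 control.

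**Figure D2:**
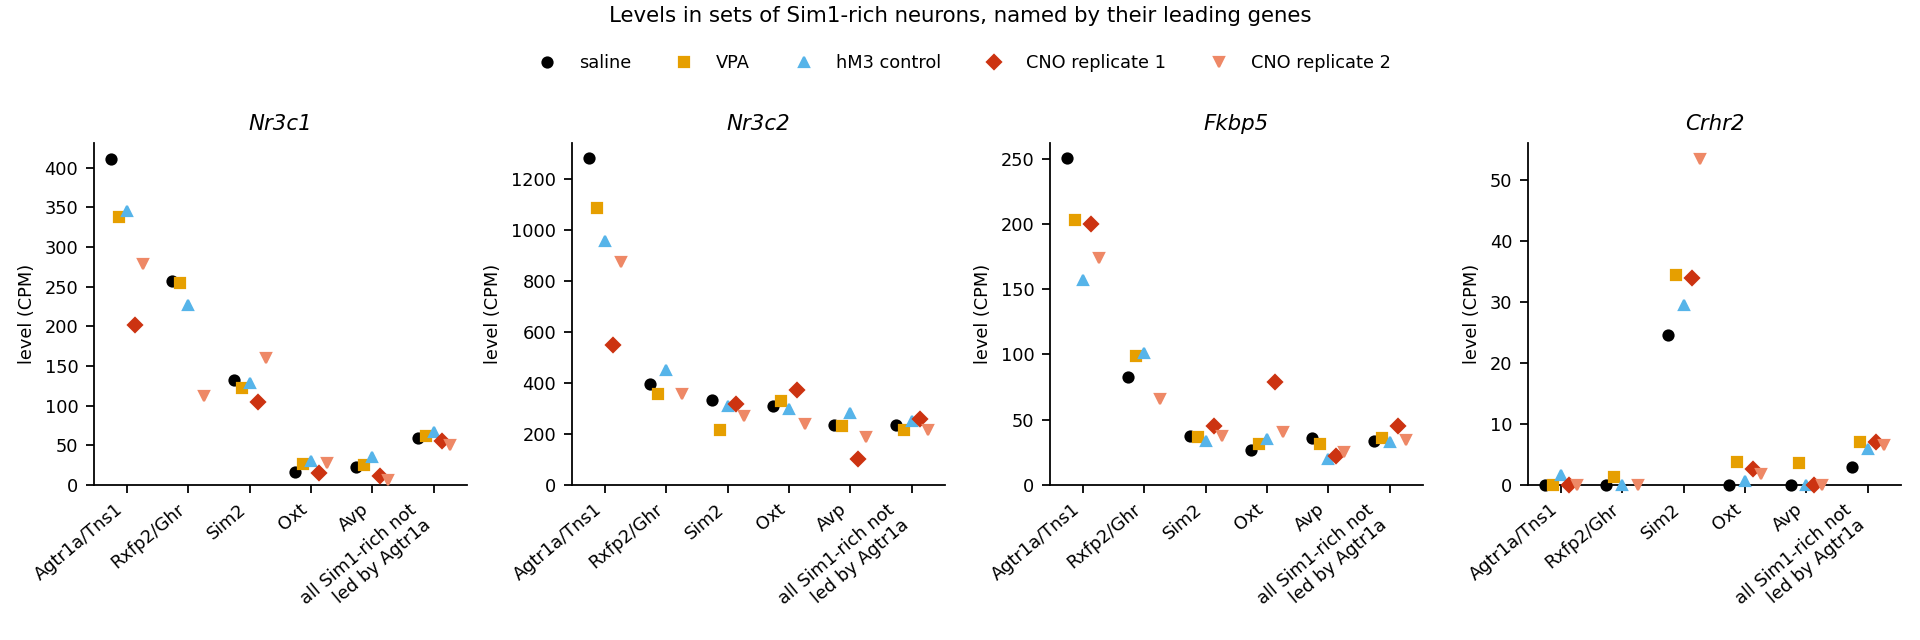
Nr3c1, Nr3c2, Fkbp5 and Crhr2 in sets of Sim1-rich neurons named by their leading genes, in CPM on linear axes, with 1 symbol per library. The Rxfp2-led set (marked Rxfp2/Ghr) has no symbol for CNO replicate 1, which gave 8 nuclei, under the 10 required. The Agtr1a-led neurons lie above the other sets for Nr3c1, Nr3c2 and Fkbp5 in all libraries, and the Sim2-led neurons for Crhr2.

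The sub-clusters led by the pituitary peptide genes had little Nr3c1. In the sub-cluster led by Oxt (281 nuclei) it was 16.7 CPM in saline, 26.8 in VPA, 30.4 in the hM3 control and 15.3 and 27.8 in CNO replicates 1 and 2, and in that led by Avp, the vasopressin gene (274 nuclei), it was 22.8, 25.1, 35.3, 11.2 and 5.54 CPM. The Agtr1a-led level was 10.0 to 24.6 times that of the Oxt-led neurons (median 12.6) and higher in 5 of 5 libraries. Nr3c2 was nonetheless present in both, at 307 CPM in Oxt-led and 232 CPM in Avp-led neurons, so that it separated them from the Agtr1a-led neurons less, by a median of 3.32 and 4.72 times. Fkbp5 stood at 36.9 CPM in Oxt-led neurons and 28.4 CPM in Avp-led ones, both below the median sub-cluster at 43.7 CPM, and only 2 of the 51 sub-clusters were lower than the Avp-led one. The Rxfp2-led neurons (225 nuclei) lay between, with Nr3c1 at 236 CPM, Nr3c2 at 388 CPM and Fkbp5 at 90.4 CPM, which are 3.44, 1.67 and 2.49 times the other Sim1-rich level (medians over the 5 libraries, higher in 5 of 5 for each). CNO replicate 1, with 8 Rxfp2-led nuclei, gave the lowest ratio for each gene, at 1.81, 1.37 and 1.57. The Sim2-led neurons had Nr3c1 at 126 CPM, Nr3c2 at 285 CPM and Fkbp5 at 37.3 CPM.

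Outside the Sim1-rich family the 3 genes did not rank together. The GABAergic-like sub-cluster led by Nr5a2 and Corin had Nr3c1 at 258 CPM and that led by Sytl4 and Bnc2 at 183 CPM, and both ranked among the 5 highest. Nr3c2 was next after the Agtr1a-led pair, at 399 CPM, in the Pdgfd- and Pax6-led sub-cluster. Fkbp5 was next after that pair, at 111 CPM, in the sub-cluster led by Dock5 and Ano3, in which Nr3c2 was near its lowest at 125 CPM. Over the 51 sub-clusters Nr3c1 and Fkbp5 had r = 0.65, Nr3c2 and Fkbp5 r = 0.42, and Nr3c1 and Nr3c2 r = 0.24. The genes most like Nr3c2 were Agtr1a (r = 0.74), 5330439M10Rik (0.73), Mdm1 (0.71), Stk38l (0.67) and Tank (0.66). Those most like Nr3c1 were Abhd6 (0.73), Bcl6 (0.70), Sf3b1 (0.67), Clmn (0.65) and Fkbp5. Those most like Fkbp5 were Nr3c1, Ppp1r17 (0.63), 5330439M10Rik (0.62), Tbc1d8b (0.61) and Cmtm8 (0.61), and those most like Crh were Gm30373 (0.67), Alkal2 (0.55), Rufy4 (0.55), Fuca1 (0.52) and Tns1 (0.52).

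**Figure D3:**
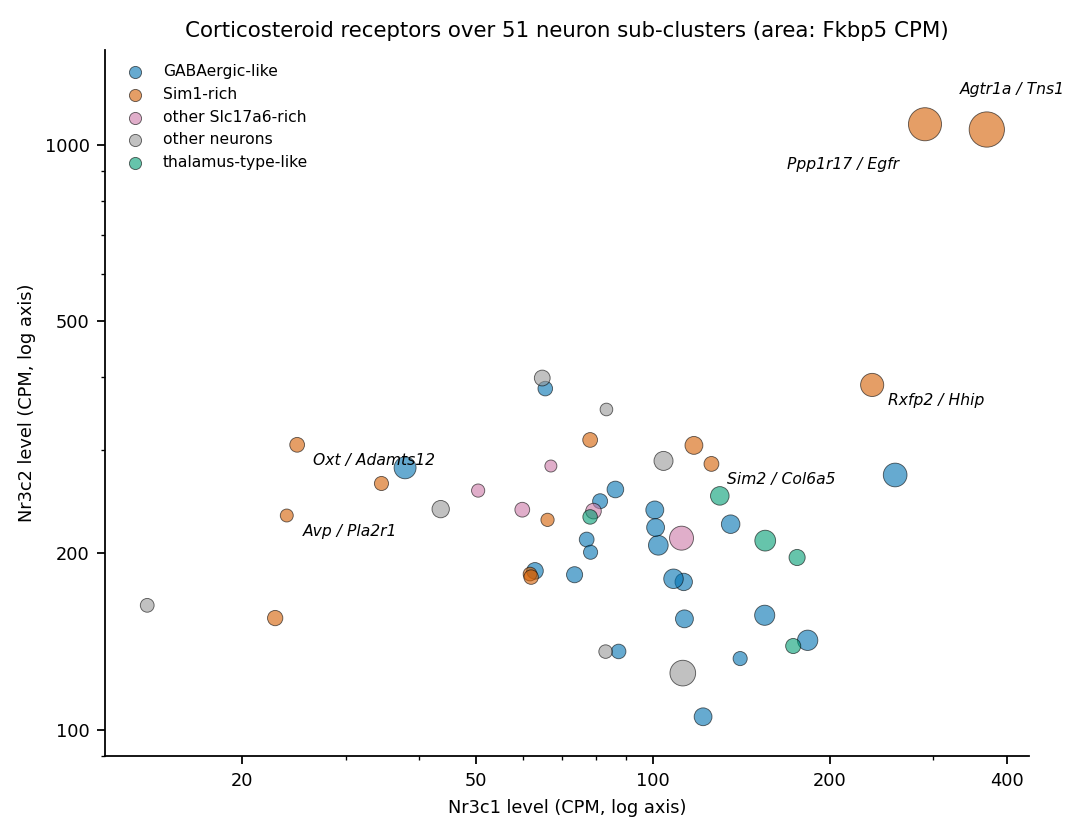
Nr3c1 level against Nr3c2 level over the 51 neuron sub-clusters, in CPM summed over the 5 libraries on log axes, with 1 circle per sub-cluster coloured by family and of an area set by its Fkbp5 level. The 2 sub-clusters with Nr3c2 above 1000 CPM, led by Agtr1a and Tns1 and by Ppp1r17 and Egfr, also have the highest Nr3c1, and the Oxt- and Avp-led sub-clusters lie among those lowest in Nr3c1.

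The other genes of the axis, taken from 9 lists with 87 genes, were compared between the Agtr1a-led and the other Sim1-rich neurons. Of the 17444 genes measured there, 8.45% were at least 1.5-fold higher, 20.1% at least 1.5-fold lower and 28.5% either. Of 18 measured glucocorticoid-induced genes, 7 were at least 1.5-fold higher and 0 lower, with a median log2 ratio of 0.53 against -0.04 over all genes measured. The transcription factor genes Zbtb16 (329 against 33.2 CPM, log2 ratio 3.31) and Klf9 (75.6 against 15.7 CPM, 2.27) were higher in 5 of 5 libraries, as was the clock gene Per1 (19.3 against 7.52 CPM). Tsc22d3 and Sgk1, induced by glucocorticoids in many tissues, were level, at 1.62 against 1.77 CPM and 75.2 against 81.0 CPM. Of 9 coregulators 2 were past the fold upward, Ncoa1 (706 against 304 CPM) and Ncoa2 (406 against 265 CPM), and Ncoa3 was past it downward (35.2 against 55.8 CPM). None of the 12 chaperones passed the fold, with a median log2 ratio of 0.33.

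Among the remaining lists, 3 of 16 genes of the cAMP arm were past the fold upward and 2 downward, and the adenylyl cyclase gene Adcy5 stood at 184 against 80.5 CPM. Of 3 measured receptors of other stress peptides the melanocortin receptor gene Mc4r was higher (6.18 against 1.96 CPM) and 1 was lower. H6pd, which supplies the cofactor for the enzyme that regenerates corticosterone, was at 9.12 against 3.44 CPM, while the other 2 measured genes of corticosteroid metabolism were past the fold downward, that enzyme's gene Hsd11b1 (0.294 against 0.872 CPM, 2 UMIs in the Agtr1a-led neurons) and Srd5a1 (3.38 against 5.87 CPM). Of 8 genes of prohormone processing 2 were past it upward and 1 downward. Of 6 measured peptide genes 4 were past the fold downward, among them Oxt (20.6 against 138 CPM) and Avp (10.7 against 75.8 CPM), both of which lead sub-clusters of the comparison set. Thyrotropin-releasing hormone (Trh) had its highest level of any sub-cluster, 55.01 CPM, in the Ppp1r17- and Egfr-led nuclei. The Crh-family ligand Ucn3 was highest, at 61.7 CPM, in the sub-cluster led by Ucn3, Etv1 and Trh and had 1 UMI in the Agtr1a-led neurons, and both measured genes of its list, Ucn3 and Crhbp, were past the fold downward there.

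In glia Fkbp5 was highest in microglia-like nuclei and Nr3c2 in astrocyte-like nuclei. Microglia-like Fkbp5 was 486 CPM in saline, 618 in VPA, 336 in the hM3 control and 837 and 396 in CNO replicates 1 and 2, which is 7.03 to 11.5 times the neuron-like level of the same library (median 9.90) and higher in 5 of 5. Every microglia-like value lay above every value of the neuron-like, astrocyte-like, oligodendrocyte-like and oligodendrocyte progenitor-like nuclei. Oligodendrocyte-like Fkbp5 was 80.4, 133, 83.1, 158 and 85.5 CPM in the same order and astrocyte-like Fkbp5 was 35.7, 48.1, 36.7, 83.1 and 37.2 CPM. Astrocyte-like nuclei were thus at 0.727 to 1.13 times the neuron-like level, with only CNO replicate 1 above it.

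Astrocyte-like Nr3c2 was 684 CPM in saline, 689 in VPA, 640 in the hM3 control and 536 and 453 in CNO replicates 1 and 2. This was 1.84 to 2.98 times the neuron-like level (median 2.44) and higher in 5 of 5 libraries. In oligodendrocyte-like nuclei Nr3c2 was steady at 121 to 133 CPM, below the neuron-like level in 5 of 5 libraries, and in microglia-like nuclei it was 162 CPM, also lower in 5 of 5. Nr3c1 was higher than in neuron-like nuclei in 5 of 5 libraries in 4 glial classes, at 355 CPM in microglia-like (median ratio 3.36), 219 CPM in astrocyte-like (2.00), 193 CPM in oligodendrocyte-like (1.86) and 175 CPM in oligodendrocyte progenitor-like nuclei (1.70). The small committed oligodendrocyte progenitor-like class (157 nuclei, 106 UMIs) was not above it in every library, at 91.2 CPM (58.9 to 128 over the libraries) against 109 CPM in neuron-like nuclei.

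The glial classes were not made of the same clusters in each library. Of the astrocyte-like nuclei, the Etnppl-led cluster held 533 of the saline nuclei, the Nhsl1-led cluster 757 of those of VPA, the Itih3-led cluster 595 of those of the hM3 control and the Gm9925- and Apoe-led cluster 1014 of those of CNO replicate 2. Most oligodendrocyte-like nuclei of saline (241) and VPA (445) were in a Mobp-led cluster, and most of the CNO libraries (535 and 368) in a Ptgds-led one. The part of these clusters in the differences between libraries that follow was not tested.

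Prenatal VPA was compared with saline in 1 library each, so the comparison has no replicate and no test, and differences are read against a 1.5-fold limit. In neuron-like nuclei 1 of 6 members, Crhr2, passed it, where 12.7% of the 19216 genes measured did. Crhr2 was 2.94 CPM in VPA (151 UMIs) and 1.4997 CPM in saline (85 UMIs), a log2 ratio of 0.97 (0.58 to 1.37). The other log2 ratios were -0.03 (-0.48 to 0.42) for Crh, -0.22 (-0.44 to -0.00) for Crhr1, -0.12 (-0.18 to -0.07) for Nr3c1, -0.28 (-0.31 to -0.24) for Nr3c2 and 0.13 (0.06 to 0.21) for Fkbp5. Crh was therefore within counting error of no difference, and the interval leaves room for up to 0.48 lower or 0.42 higher.

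The Crhr2 ratio varied with the neuron types. Sim2-led nuclei were 3.69% of the neuron-like nuclei in VPA and 2.44% in saline, and within them the log2 ratio was 0.49 (-0.12 to 1.13). It was 1.33 (0.76 to 1.93) over the Sim1-rich family and 0.02 (-0.55 to 0.60) over GABAergic-like nuclei. With equal weight for every neuron sub-cluster the ratio was 0.46 and no member passed the 1.5-fold limit. Nr3c2 in contrast was lower in VPA in these neuron families, by a log2 ratio of -0.29 in Sim1-rich, -0.37 in thalamus-type-like, -0.16 in GABAergic-like and -0.29 in other Slc17a6-rich nuclei, each with an interval below 0, and reached -0.61 (-0.80 to -0.42) in Sim2-led nuclei. It was 0.01 (-0.09 to 0.11) in astrocyte-like and 0.14 (-0.19 to 0.48) in oligodendrocyte-like nuclei.

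Fkbp5 did not differ from saline the same way in all types. It was lower in VPA in Sim1-rich nuclei, where the log2 ratio was -0.20 (-0.33 to -0.07), and in the Agtr1a-led neurons among them, at -0.30 (-0.50 to -0.11). In the Sim1-rich neurons outside the Agtr1a-related sub-clusters it was 33.3 CPM in saline and 35.5 in VPA, not lower, and the Agtr1a-led neurons were 205 of 1072 Sim1-rich nuclei in saline and 323 of 1990 in VPA. Nr3c1 and Nr3c2 were also lower in the Agtr1a-led neurons, at -0.28 (-0.43 to -0.13) and -0.24 (-0.32 to -0.15). Fkbp5 was higher in GABAergic-like nuclei, at 0.30 (0.17 to 0.43), and past the 1.5-fold limit in oligodendrocyte-like nuclei, at 0.72 (0.34 to 1.11), where 21.9% of the genes measured passed that limit either way. In the 42 neuron sub-clusters with enough UMIs it was higher in 30, with 8 past the limit upward and 4 downward.

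Of the other genes of the axis in neuron-like nuclei, 5 of 19 measured glucocorticoid-induced genes were past 1.5-fold upward in VPA and 1 downward, where 8.01% and 4.74% of all genes were, with a median log2 ratio of 0.34 against 0.08 over all genes. The largest were Map3k6 (-1.24) and the metallothioneins Mt1 (1.82 CPM in saline and 4.08 in VPA, 1.17) and Mt2 (0.618 and 1.21 CPM, 0.97). The chaperone Ppid was higher (15.1 and 23.1 CPM, 0.61) and the other chaperones were within the limit. Vip (6 and 17 UMIs, 1.64), Pomc (50 and 71 UMIs, 0.65), Mc2r (6 and 16 UMIs, 1.56) and Hsd11b2 (9 and 17 UMIs, 1.06) passed it upward on few counts. No gene of the coregulator, cAMP or prohormone-processing lists did.

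**Figure D4:**
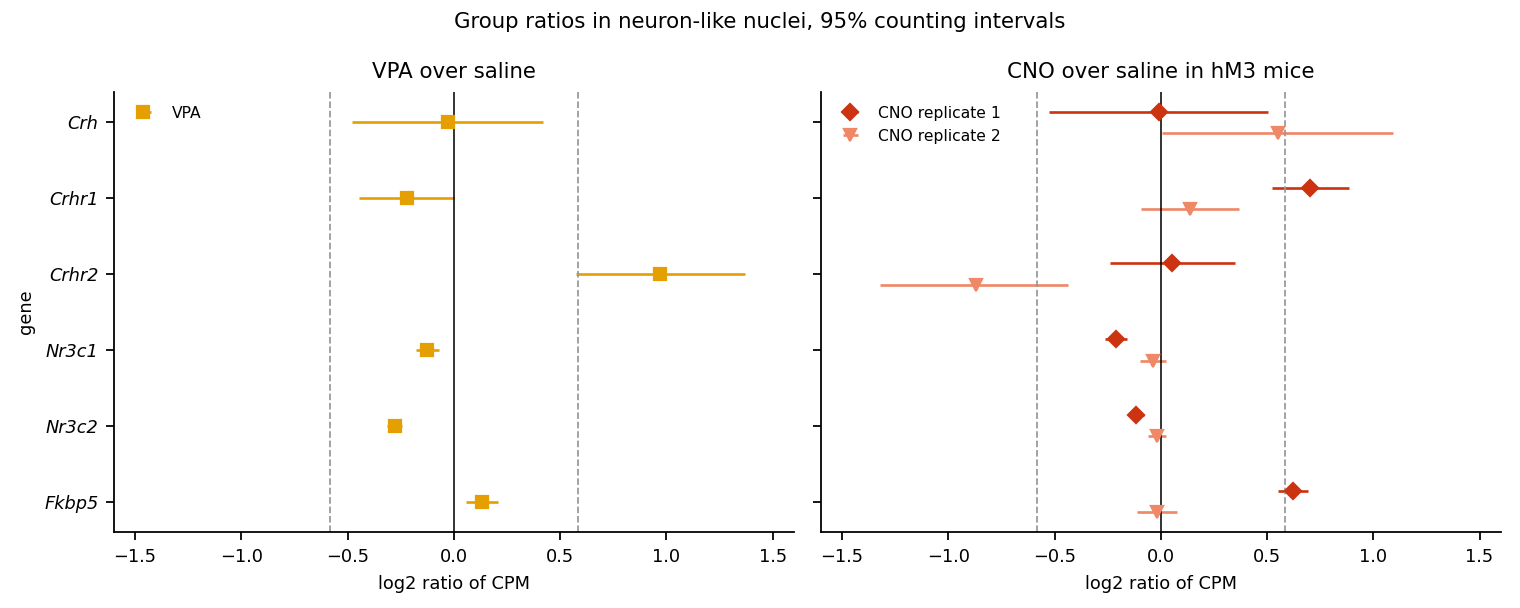
Log2 ratio of the CPM of each gene in neuron-like nuclei for VPA over saline (left) and for CNO replicates 1 and 2 over the hM3 control (right), with bars for the 95% counting interval and dashed lines at 1.5-fold. Crhr2 is past the line for VPA, and no gene is past the same line in both CNO replicates.

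CNO given on postnatal day 2 was compared with saline in hM3 mice in 2 libraries against 1. No member passed 1.5-fold the same way in both CNO libraries in neuron-like nuclei (0 of 6, where 6.5% of 18381 genes did). The quasi-likelihood test of edgeR called 0 of 6 members and 4 of 19759 genes (0.0202%) at an adjusted p under 0.05, with 630 genes under 0.05 before adjustment, and DESeq2 called 10 genes and no member. The test rests on the spread between 2 pooled libraries and assumes that the lone control varies like them. An exact permutation of 1 library against 2 could not go below 0.333, and on simulated counts edgeR found 38% of 2-fold and 90% of 4-fold changes. The dispersion of those counts was fixed, the same for all genes and not estimated from these libraries, so the shares hold for that setting only.

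Fitted log2 ratios for CNO over control in neuron-like nuclei were 0.19 for Crh, 0.35 for Crhr1, -0.42 for Crhr2, -0.22 for Nr3c1, -0.17 for Nr3c2 and 0.24 for Fkbp5, each with an edgeR adjusted p of 1. For both CRH receptors the 2 CNO replicates gave unlike values. Crhr1 was 0.70 (0.52 to 0.88) above the control in replicate 1 and 0.14 (-0.09 to 0.37) in replicate 2, and Crhr2 was 0.05 (-0.24 to 0.35) and -0.87 (-1.32 to -0.44). The Sim2-led share was 3.37% of neuron-like nuclei in the control, 1.95% in replicate 1 and 1.86% in replicate 2, and within those nuclei the Crhr2 ratios were 0.20 (-0.49 to 0.87) and 0.85 (0.04 to 1.62). Crh in GABAergic-like nuclei was past 1.5-fold in both, at 0.72 (0.00 to 1.46) and 0.92 (-0.00 to 1.81) from 28, 44 and 19 UMIs, the only member to do so there, where 5.99% of genes did. In other classes the members past the limit the same way in both CNO libraries were lower than in the control and rested mostly on few UMIs. They were Crhr2 in thalamus-type-like (16 UMIs in the control, 6 and 10 in the replicates) and in other Slc17a6-rich nuclei (23, 29 and 3 UMIs), where 7.16% and 6.09% of genes were past it. Nr3c1 was so in the Rxfp2-led (90, 10 and 12 UMIs) and Avp-led neurons (27, 2 and 2 UMIs), where 13% and 7.93% of genes were. In the Avp-led neurons Nr3c2 also was, at 283 CPM in the control and 100.4 and 188 CPM in the replicates. In microglia-like nuclei Nr3c2 was 166 CPM in the control and 109 and 94.3 CPM in the replicates (50, 9 and 5 UMIs), log2 ratios of -0.61 (-1.82 to 0.43) and -0.82 (-2.50 to 0.50), where 13.6% of genes were past the limit.

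Nr3c1 was lower in both CNO libraries in the Sim1-rich family, at log2 ratios of -0.75 (-0.92 to -0.58) and -0.53 (-0.71 to -0.35), and so was Nr3c2, at -0.37 (-0.46 to -0.29) and -0.30 (-0.39 to -0.21). The Agtr1a-led neurons, in which both are highest, were 103 of 2969 neuron-like nuclei in the control, 20 of 2507 in replicate 1 and 56 of 2257 in replicate 2. Outside the Agtr1a-related sub-clusters Nr3c1 was 66.0, 55.8 and 50.4 CPM and Nr3c2 249, 258 and 214 CPM in the same order. Within the Agtr1a-led neurons the Nr3c1 ratios were -0.77 (-1.11 to -0.45) and -0.31 (-0.58 to -0.04). In GABAergic-like nuclei they were -0.24 (-0.32 to -0.17) and -0.42 (-0.54 to -0.31), and in thalamus-type-like nuclei -0.14 (-0.24 to -0.03) and 0.15 (0.05 to 0.25), so the direction was not shared by all families.

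In glia the test called no member either. Of 13778 genes in astrocyte-like nuclei 5 were called (0.0363%) and of 10771 in oligodendrocyte-like nuclei 19 (0.176%), with 664 and 373 genes under 0.05 before adjustment, and DESeq2 called 0 and 1. Crh, Crhr1 and Crhr2 did not pass the filter on low counts there. Fkbp5 had fitted log2 ratios of 0.60 (edgeR adjusted p = 0.996) in astrocyte-like and 0.47 (adjusted p = 1) in oligodendrocyte-like nuclei, and Nr3c2 of -0.46 (adjusted p = 0.996) in astrocyte-like nuclei. None of the list genes was called in neuron-like, astrocyte-like or oligodendrocyte-like nuclei. In neuron-like nuclei 5 of 19 glucocorticoid-induced genes were nevertheless past 1.5-fold upward in both CNO libraries (Dusp1, Cdkn1a, Mt1, Mt2 and Tsc22d3) and 0 downward, where 5.91% of all genes were past it upward in both, with a median log2 ratio of 0.31 against 0.10 over all genes. Dusp1 was 1.09 CPM in the control, 2.51 in replicate 1 and 2.87 in replicate 2, Cdkn1a 0.998, 2.32 and 1.97 CPM, and Mt1 3.85, 6.62 and 9.81 CPM. Mt1, Mt2 and Tsc22d3 were highest in a sub-cluster of 89 nuclei led by mitochondrial genes, Mobp and Fth1 (median 1683 UMIs, with 19, 21 and 39 nuclei in the control and the CNO replicates), Cdkn1a in the Rnf213-led one and Dusp1 in a thalamus-type-like one led by Abhd12b and Prkcd, with 9 nuclei in the control and 80 and 151 in the CNO replicates. Without the Mobp-led and Rnf213-led sub-clusters the same 5 genes were past the limit upward in both CNO libraries, and without all 3 sub-clusters 4 of them were, Tsc22d3 being just under it in replicate 1 (0.58). Both settings were added after the data were seen. In neuron-like nuclei the summed level of 9 astrocyte markers was 95.5 CPM in the control, 120 in replicate 1 and 157 in replicate 2, and that of 8 oligodendrocyte markers 62.1, 96.7 and 88.6 CPM. That of 8 microglia markers was 48.3, 56.6 and 104 CPM in the same order. The part of these markers in the result was not tested. Pomc (1.28, 2.77 and 2.70 CPM) and Oxtr (0.333, 1.12 and 0.518 CPM) were the other list genes past the limit in both CNO libraries in neuron-like nuclei.

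Fkbp5 separated the CNO replicates in every major class. It was 73.5 CPM in replicate 1 and 47.2 CPM in replicate 2 in neuron-like nuclei, 83.1 and 37.2 CPM in astrocyte-like, 158 and 85.5 CPM in oligodendrocyte-like, 159 and 30.5 CPM in oligodendrocyte progenitor-like and 837 and 396 CPM in microglia-like nuclei. Replicate 1 was the highest of the 5 libraries in all 5 classes, and replicate 2 was near the hM3 control in all but the oligodendrocyte progenitor-like nuclei. Over the control, the log2 ratios of replicate 1 were 0.62 (0.55 to 0.69), 1.18 (0.85 to 1.503), 0.92 (0.64 to 1.21), 1.01 (0.46 to 1.58) and 1.32 (0.85 to 1.77), each past 1.5-fold, a limit passed upward by 10.7%, 13.3%, 13.5%, 17.9% and 18% of the genes measured. Those of replicate 2 were -0.02 (-0.11 to 0.08), 0.02 (-0.32 to 0.35), 0.04 (-0.36 to 0.44), -1.36 (-2.66 to -0.27) and 0.24 (-0.52 to 0.93). A difference between 2 libraries of 1 group is a difference between those libraries, and its source was not tested.

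Of 5554 genes measured in all 5 classes, 60 (1.08%) were highest of the 5 libraries in replicate 1 in each class, and Fkbp5 was the only member or list gene among them. The same count was 26 genes (0.468%) for saline, 15 (0.27%) for VPA, 7 (0.126%) for the hM3 control and 201 (3.62%) for CNO replicate 2, so replicate 1 was not the library that stood highest most often. Among the 3 hM3 libraries alone, a setting added after the data were seen, replicate 1 was highest in each class for 3.69% of 3735 genes. Within neurons, Fkbp5 was above the control in replicate 1 in 36 of 42 sub-clusters, with 23 past 1.5-fold and 0 past it downward, against 18 of 39 in replicate 2, with 5 past it upward and 9 downward. The log2 ratio of replicate 1 over the control was 0.74 (0.63 to 0.84) in the GABAergic-like and 0.09 (-0.11 to 0.29) in the Sim1-rich family, in which the Agtr1a-led neurons were 103 of 622 nuclei in the control and 20 of 279 in replicate 1. Within the Agtr1a-led neurons it was 0.35 (-0.01 to 0.69), and in the Sim1-rich neurons outside the Agtr1a-related sub-clusters Fkbp5 was 33.0 CPM in the control and 45.0 CPM in replicate 1. In oligodendrocyte-like nuclei 10 of 18 measured glucocorticoid-induced genes were highest in replicate 1, where 17.8% of all genes were, among them Tsc22d3 (430 CPM against 273 in the control and 167 in replicate 2), Zbtb16 (720, 450 and 322 CPM), Klf9 (172, 105 and 96.7 CPM), Sgk1 (283, 151 and 198 CPM) and Arrdc2 (115, 55.4 and 47.4 CPM). The counts were 7 of 19 in neuron-like (28.7% of all genes), 8 of 19 in astrocyte-like (23.4%), 5 of 8 in oligodendrocyte progenitor-like (26.8%) and 0 of 3 in microglia-like nuclei (25%). Nr3c1 was lowest of the 5 libraries in replicate 1 in the neuron-like (98.7 CPM), astrocyte-like (167 CPM), oligodendrocyte-like (166 CPM) and oligodendrocyte progenitor-like nuclei (129 CPM), as were 15.2%, 17.2%, 13.2% and 16.6% of all genes, and not in microglia-like nuclei.

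**Figure D5:**
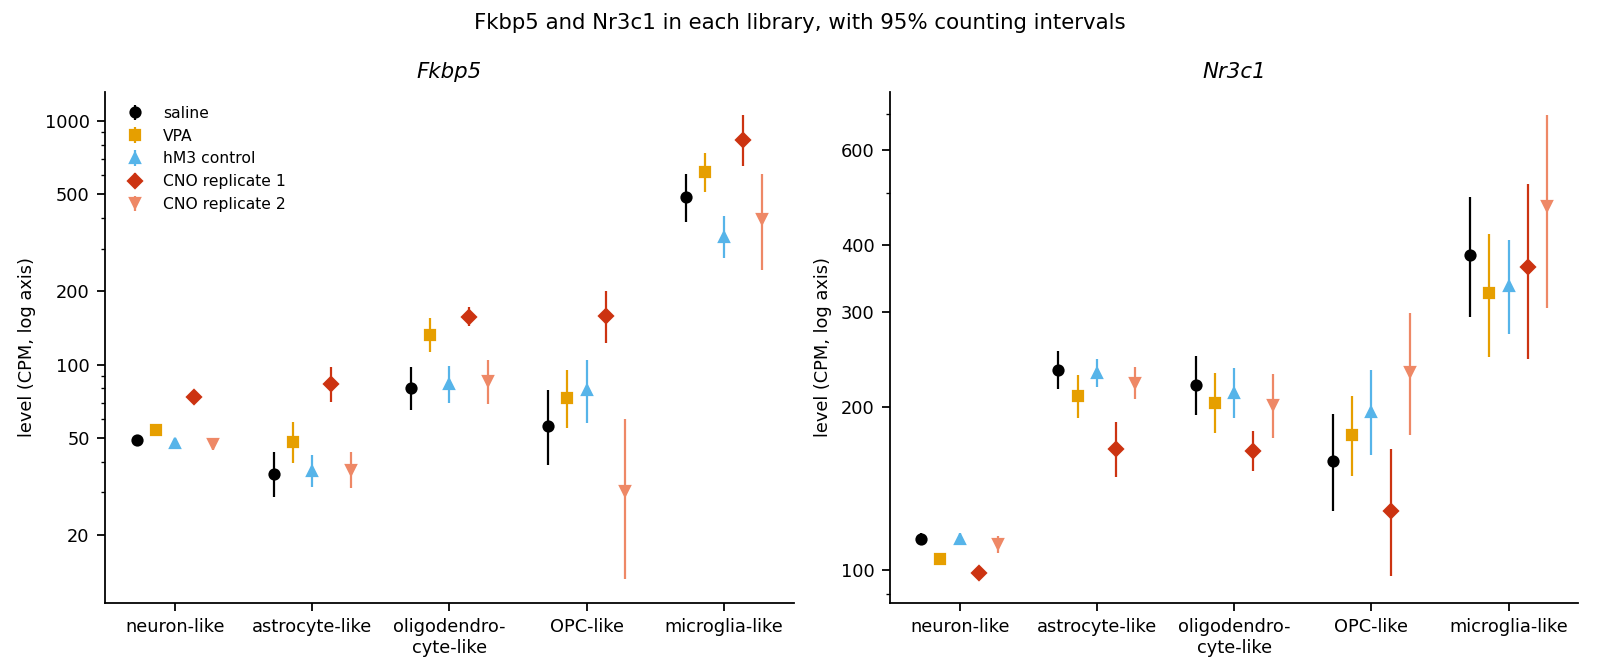
Fkbp5 (left) and Nr3c1 (right) in each of the 5 libraries in 5 classes of nuclei, in CPM on log axes, with bars for the exact 95% counting interval and OPC standing for oligodendrocyte progenitor. For Fkbp5 CNO replicate 1 is the highest library in each class, at 73.5 CPM in neuron-like and 837 CPM in microglia-like nuclei, and for Nr3c1 it is the lowest in all but the microglia-like nuclei.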

How the data were processed

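Single nuclei of the PVH were profiled in 5 droplet libraries, and the authors deposited, per the submitters' processing notes, raw UMI counts per gene and barcode made with Cell Ranger 7.0.1 on mm10. Samples were grouped by the labels. Whether counting used introns or strand is not given in the sources used here. Nuclei with under 1000 UMIs or over 5% mitochondrial counts were left out, and in each library the nuclei with the highest doublet scores, 0.8% per 1000 nuclei. Normalised counts of 2000 variable genes, without the 6 members, Oxt, Avp and Cre, gave 30 principal components and, with 20 neighbours, Leiden clusters at resolution 1 (33 clusters, scanpy 1.11.5, leidenalg 0.10.2). Clusters of glia with at least 200 nuclei were split at 0.5, and neuron-like nuclei were clustered again at 2. Classes were named from fixed marker lists. The limits for calling a cluster mixed and the splitting were set after the data were seen, and 1127 nuclei of mixed clusters entered no class. They were 11.6% of the nuclei of CNO replicate 2 and 0.123% to 6.24% of the others.

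Counts were summed per library and class. CPM, ratios and intervals were computed from the sums, with at least 20 UMIs over 2 libraries for a ratio to be counted. Only CNO against saline in hM3 mice had replicates: edgeR 4.0.16 (R 4.3.3, TMM, quasi-likelihood, Benjamini-Hochberg over all genes, threshold 0.05), with DESeq2 1.42.0 as the alternative, and the procedure was tested on simulated counts. The labels give pooled mice but not whether the CNO libraries were separate litters, so p-values measure only the spread between these libraries. Like patterns were ranked among genes with at least 20 CPM in 1 or more sub-clusters. From 9 lists of 87 genes, genes past 1.5-fold in a contrast were named, at most 3 per list and contrast, and others named beside them were chosen after their values were seen. The members and lists were chosen with earlier results of these data known. Alternatives changed the UMI minimum, doublet filter, scaling, clustering, weights, low-count filter and replicates. Promoters came from RefSeq.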

Additional observations from a re-analysis of the deposited data

Results flagged for a closer look

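Fkbp5 in VPA against saline was singled out because its log2 ratio had opposite signs in different classes of nuclei, with counting intervals that exclude 0. It was -0.20 (-0.33 to -0.07) in Sim1-rich neurons, 0.30 (0.17 to 0.43) in GABAergic-like neurons, 0.40 (0.04 to 0.75) in other Slc17a6-rich neurons, 0.43 (0.02 to 0.85) in astrocyte-like and 0.72 (0.34 to 1.11) in oligodendrocyte-like nuclei. Within the Sim1-rich family it was -0.30 (-0.50 to -0.11) in the Agtr1a-led neurons, while outside the Agtr1a-related sub-clusters Fkbp5 was 33.3 CPM in saline and 35.5 in VPA, not lower. Each value compares 1 library with 1, and the difference between classes was not tested. Over all genes the median log2 ratio was 0.05 in Sim1-rich and 0.08 in neuron-like nuclei.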

How the results depend on the processing

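All 90 levels recomputed under other clustering, UMI minimum and doublet settings stayed within the spread between libraries, and no ratio counted as past its limit changed sign. Crhr2 was the 1 member past 1.5-fold in VPA under 6 of 7 alternatives, but equal weight per neuron sub-cluster left 0. The edgeR count for CNO in neuron-like nuclei, 4 genes, was 10 with DESeq2, 35 with DESeq2 size factors in edgeR and 37 with no low-count filter, none of them a member. The share of nuclei rich in Crh, 0.0898%, was 0.264% at 2 UMIs, 0.0106% at 5 UMIs and 0% with nuclei thinned to 2000 UMIs, so depth limits it. Of the recomputed CNO ratios of single members, 104 lay within the spread of the 2 replicates and 9 did not. Those that left out 1 replicate are counted among the 104 and could only lie within that spread. For VPA, 90 lay within the counting interval of the main value and 6 did not. Among these were Nr3c1 and Nr3c2 in microglia-like nuclei, which went from -0.24 and -0.49 to 0.95 and 1.09 with at least 2000 UMIs per nucleus. The cause was not tested. TMM factors ran from 0.948 to 1.04 in neuron-like and from 0.891 to 1.15 in microglia-like nuclei, where they moved Nr3c2 for CNO from -0.71 to -1.05. Taking only the 3 hM3 libraries, chosen after seeing the data, 3.69% of 3735 genes were highest in CNO replicate 1 in 5 classes, Fkbp5 among them. Without either CNO replicate the edgeR comparison is 1 library against 1 and gives values with no test. No paired analysis was possible because the control group has 1 library and the groups share fewer than 2 replicate numbers.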

Other observations

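Some small classes had the highest levels of single members. Crhr2 was 69.8 CPM (51.3 to 92.8, 47 UMIs) in 82 choroid plexus-like nuclei, with a UMI in 35 of them (42.7%), above the 32.0 CPM of the Sim2-led neurons, but all of these nuclei came from the saline library. Those nuclei had no Crh and no Crhr1 UMI. Crhr1 was 142 CPM (97.1 to 200.3, 32 UMIs) in 122 nuclei led by Gabra6 left unnamed by the marker lists, 121 of them from the VPA library. In 92 fibroblast-like nuclei led by Slc47a1, Fkbp5 was 1113 CPM (1007 to 1227, 402 UMIs) and Nr3c2 was 2048 CPM (1904 to 2202), against 157 and 336 CPM in 85 fibroblast-like nuclei led by Cped1. The Slc47a1-led values were the highest of both genes in any class or neuron sub-cluster examined.

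A neuron sub-cluster led by the interferon-induced genes Rnf213, Iigp1 and Herc6 (265 nuclei) was found only in the hM3 libraries, which were injected with AAV, with 138 nuclei in the control, 69 and 58 in CNO replicates 1 and 2, and 0 in saline and VPA. Crh stood at 3.56 CPM there (17 UMIs), below 4 of the 51 sub-clusters.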
